A study of Rattus norvegicus with 10 samples.

Results

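The channels described are 6 genes of excitability and pacemaking, found by symbol among the 18025 genes of the deposited table: the sodium channel β subunit Scn4b (NCBI Gene 315611), the pacemaker channels Hcn2 (114244) and Hcn4 (59266), the L-type calcium channel Cacna1d (29716) and the T-type calcium channels Cacna1g (29717) and Cacna1h (114862). All 6 were listed and all 6 passed the filter on low values, which asked for 0.1 FPKM or more on average and left 14542 genes. FPKM are read numbers divided by gene length and by library size, so that levels of different genes can be compared. The hearts came from wild-type Sprague-Dawley fetuses at embryonic day 19.5, of dams 3 months old that were mated with normoglycemic males. Dams of the hyperglycemia (HG) group were injected on 3 consecutive days with streptozotocin, which destroys the insulin-producing cells of the pancreas, and dams of the control (CON) group with citric acid buffer alone. The labels place the grouping of dams before mating and the Methods place it after, so the timing of the injections relative to conception is not settled by the sources. Each group had 5 libraries. Nothing states which fetuses shared a dam, no sex information was collected, and the Methods mention pooled RNA, so p-values describe the spread between these libraries.

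A heartbeat starts where a cell drifts toward its firing threshold between beats. HCN channels open when the membrane is negative and let sodium and potassium pass, T-type calcium channels and the L-type channel Cav1.3 open next at fairly negative voltages, and the fast sodium channel carries the upstroke in atria, ventricles and the conduction system. In the adult heart HCN and T-type channels are found mainly in the sinoatrial node and the conduction system, whereas the fetal ventricle still makes them widely. The comparison asked whether the hearts of HG fetuses differed from CON hearts in the transcripts of these channels.

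The sequences before the start sites of the called genes are shown for the pair that moved in opposite directions and had an entry, Hcn2 (lower) and Cacna1d (higher). They are the 250 bases before the RefSeq start of each gene in the build GRCr8, a later build than the mRatBN7.2 named for the deposited values, read 5′ to 3′ on the strand of the gene. RefSeq windows were matched for 3 of the 6 genes, Scn4b included, and not for Hcn4, Cacna1g and Cacna1h. The Hcn2 window is chr7:10639458-10639707 on the minus strand, and the Cacna1d window chr16:5527550-5527799 on the minus strand. Capitals mark the GC box GGGCGG on either strand.
Hcn2: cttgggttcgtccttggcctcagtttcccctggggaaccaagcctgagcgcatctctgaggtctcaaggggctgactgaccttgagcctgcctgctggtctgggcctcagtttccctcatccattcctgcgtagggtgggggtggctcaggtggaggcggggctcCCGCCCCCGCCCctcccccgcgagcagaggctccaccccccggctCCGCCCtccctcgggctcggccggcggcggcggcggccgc
Cacna1d: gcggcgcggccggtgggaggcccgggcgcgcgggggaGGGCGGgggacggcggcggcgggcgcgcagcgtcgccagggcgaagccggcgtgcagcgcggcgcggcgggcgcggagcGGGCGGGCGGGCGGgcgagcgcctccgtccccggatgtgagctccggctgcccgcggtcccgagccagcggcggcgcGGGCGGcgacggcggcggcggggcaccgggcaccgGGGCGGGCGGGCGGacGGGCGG
Both windows are rich in G and C, at 71.6% in Hcn2 and 88.8% in Cacna1d, where the median of 33469 windows of this length was 51.2%. Hcn2 held 3 GC boxes and Cacna1d 9, some of them overlapping each other, and Scn4b, with 71.6% G and C, held 0. A GC box was present in 30.5% of all windows. The TATA box TATAAA, the CCAAT box CCAAT and the T-box core AGGTGT were in none of the 3 windows, and in 12.9%, 34.0% and 11.6% of all windows. The E-box CANNTG occurred 2 times in Scn4b, 1 time in Hcn2 and 0 times in Cacna1d, and in 65.5% of all windows. Both strands were searched, and a match is a run of letters rather than a measured site.

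Across the libraries 16672876 to 19109844 reads lay on genes. The tissue carried the markers of heart muscle, with Tnnt2 at 3953 ± 93.5 FPKM in CON and 3246 ± 174.8 in HG, and Myl2 of the ventricle, Myl7 of the atria and Tbx3, Shox2 and Isl1 of the node were all detected. Of the genes tested, 40.1% had an adjusted p under 0.05, with 28.4% higher in HG and 11.8% lower. Higher genes made up 70.7% of these calls on the deposited scale and 47.1% with median-of-ratios factors (15.6% of genes higher, 17.5% lower), a rescaling of whole libraries that moved the median log2 fold change of all genes from 0.09 to 0.01. Quantile normalization gave 18% higher and 15.9% lower. Calls that changed with the scaling are named as such.

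Of the 6 channel genes, 2 were higher in HG (Cacna1g and Cacna1d), 1 was lower (Hcn2) and 3 did not pass the test. With 40.1% of all genes called, 3 of 6 is near the background. In whole hearts, fewer cells of a type and less RNA per cell cannot be told apart, which holds for every level given. None of the 6 reached the 2-fold change that the study set as its threshold, which 1.94% of genes did. For each of the 6 the CON and HG values overlapped, whereas 27.4% of genes had groups apart, 19.3% with HG above and 8.12% with HG below. With median-of-ratios factors 2 of the 6 were called, both lower (Hcn2 and Cacna1h).

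The levels of the channel genes formed the same order in both groups. Cacna1h was the most abundant at 41.5 to 54.0 FPKM, followed by Cacna1g at 20.4 to 29.1, Hcn4 at 5.04 to 7.49 and Hcn2 at 2.37 to 3.96 FPKM. These 4 ranges did not overlap, and the order held in all 10 libraries. Scn4b at 0.585 to 1.41 FPKM and Cacna1d at 0.423 to 1.23 FPKM came last, with overlapping ranges and Scn4b above Cacna1d in 9 of 10 libraries. Cacna1h lay above 89.1% of the genes tested in mean FPKM, and Cacna1d above 15.9%. The reads behind the values differed accordingly, from 75 to 200 per library for Cacna1d and 51 to 118 for Scn4b up to 5942 to 7970 for Cacna1h.

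**Figure D1:**
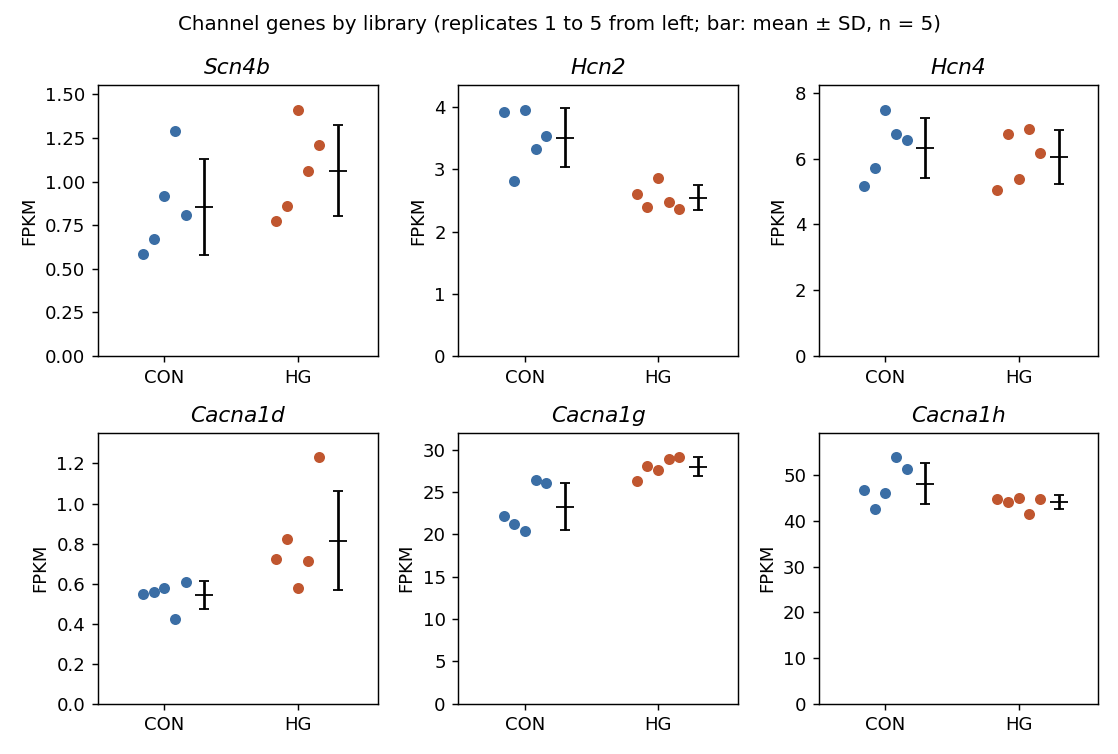
FPKM (y axis, from 0) of the 6 channel genes in 5 CON (blue) and 5 HG (orange) libraries, with the mean ± SD beside the points. Hcn2 sits lower in HG except that 2.86 FPKM in HG replicate 3 exceeds the lowest CON value of 2.81, while Cacna1g sits higher in HG, with the lowest HG value of 26.3 FPKM among the 2 highest CON values.

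Among the pacemaker channels, Hcn2 was lower in HG. Hcn2 is the HCN isoform shared by brain and working myocardium. CON libraries 1 to 5 held 3.93, 2.81, 3.96, 3.32 and 3.54 FPKM, and HG libraries 1 to 5 held 2.61, 2.40, 2.86, 2.48 and 2.37 FPKM. The groups overlapped by a single pair of libraries, CON replicate 2 and HG replicate 3, and the other 4 HG libraries lay below every CON library. The mean went from 3.51 ± 0.475 to 2.54 ± 0.201 FPKM (SD, n = 5 each), a log2 fold change of -0.44 on the log2(FPKM + 0.1) scale (standard error 0.0992, 95% confidence interval -0.66 to -0.23, adjusted p = 0.00377 from limma). This call held under every alternative that was tried, with adjusted p of at most 0.0115.

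Hcn4 encodes the main pacemaker channel of the sinoatrial node. It was at 5.16, 5.72, 7.49, 6.76 and 6.56 FPKM in CON libraries 1 to 5, and at 5.04, 6.75, 5.39, 6.90 and 6.18 FPKM in HG libraries 1 to 5. The groups covered nearly the same range, with 4 HG libraries inside the CON range and HG replicate 1 just below it. Its log2 fold change was -0.06 (standard error 0.112, adjusted p = 0.679 from limma), with a 95% confidence interval of -0.31 to 0.18, or 0.808-fold to 1.13-fold. Hcn3, another pacemaker channel, lay below the filter with at most 8 reads in any library. Hcn4 made up 64.0 ± 4.29% of the FPKM of the HCN family in CON and 69.2 ± 4.18% in HG, and Hcn2 35.6 ± 4.24% and 29.4 ± 4.16% (SD, n = 5 each).

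The ratio of Hcn2 to Hcn4 within a library does not depend on how libraries are scaled. It was 0.761, 0.492, 0.529, 0.491 and 0.540 in CON libraries 1 to 5 and 0.518, 0.355, 0.531, 0.359 and 0.383 in HG libraries 1 to 5. HG replicates 1 and 3 lay among the CON values and the other 3 below them. The difference of the log2 ratio was -0.39 (two-sided exact permutation test, n = 5 each, p = 0.0873, adjusted p = 0.0873 over 4 ratios), so that a fall of Hcn2 relative to Hcn4 did not pass the test. Without HG replicate 1 the exact permutation p was 0.0397 and without HG replicate 3 it was 0.0317. With any other library left out the exact permutation p lay between 0.0873 and 0.167. Without CON replicate 1, which had the highest ratio, the log2 difference was -0.28 (exact permutation p = 0.135).

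The T-type calcium channels changed relative to each other. Cacna1g encodes Cav3.1, the T-type pore that stays in the adult conduction system. Its level was 22.2, 21.2, 20.4, 26.5 and 26.1 FPKM in CON libraries 1 to 5, and 26.3, 28.1, 27.6, 28.9 and 29.1 FPKM in HG libraries 1 to 5. CON replicates 4 and 5 were well above the other 3 CON libraries, while HG was narrow, and HG replicate 1 lay below CON replicate 4 only. The mean rose from 23.3 ± 2.81 to 28.0 ± 1.11 FPKM (SD, n = 5 each), which limma gave as 0.27 on the log2 scale with a standard error of 0.0716 and an adjusted p of 0.00965. The value was 0.18 with an adjusted p of 0.0671 under median-of-ratios factors, the single alternative in which Cacna1g was not called.

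Cacna1h encodes Cav3.2, the T-type pore typical of the embryonic ventricle. Its level was 46.8, 42.7, 46.1, 54.0 and 51.5 FPKM in CON libraries 1 to 5, and 44.9, 44.1, 45.1, 41.5 and 44.9 FPKM in HG libraries 1 to 5. The HG values lay at the lower end of the CON range, and CON replicate 2 was below 4 of the 5 HG libraries. The log2 fold change was -0.12 (standard error 0.0581, 95% confidence interval -0.25 to 0.002, adjusted p = 0.108 from limma). It passed the test with median-of-ratios factors (-0.22, adjusted p = 0.0121), after quantile normalization (-0.17, adjusted p = 0.0482) and without CON replicate 2 (-0.17, adjusted p = 0.0261), over a range of adjusted p from 0.0121 to 0.247.

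The balance of the T-type pores differed without overlap. Of single genes 27.4% had groups apart, and the share among ratios of gene pairs was not determined. The ratio of Cacna1g to Cacna1h was 0.473, 0.496, 0.444, 0.490 and 0.507 in CON libraries 1 to 5 and 0.586, 0.637, 0.611, 0.696 and 0.649 in HG libraries 1 to 5. Every HG library was above every CON library, with a gap between 0.507 and 0.586. The mean log2 ratio rose by 0.40, a 1.32-fold change (two-sided exact permutation test, n = 5 each, p = 0.00794, the smallest that 5 against 5 allows, adjusted p = 0.0159 over 4 ratios). The sum of both genes and Cacna1i, which was below the filter, was 71.5 ± 7.15 FPKM in CON and 72.1 ± 1.38 FPKM in HG, so that Cacna1g went from 32.5 ± 1.12% to 38.8 ± 1.53% of a total of similar size.

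**Figure D2:**
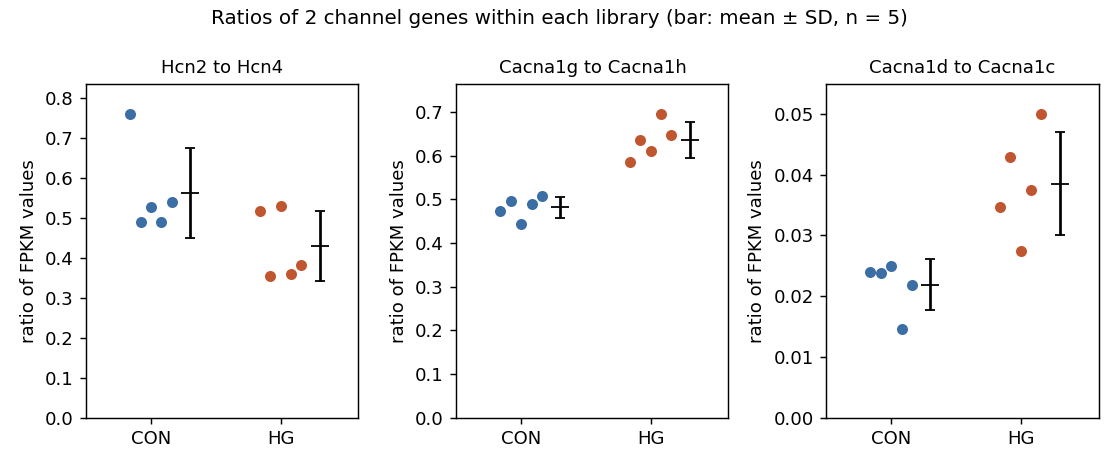
Ratio of the FPKM of a pair of channel genes within each library (y axis, no unit, from 0) for CON (blue) and HG (orange), with the mean ± SD of 5 libraries. Cacna1g to Cacna1h and Cacna1d to Cacna1c separate the groups, with 0.586 against 0.507 and 0.0275 against 0.0250 as the nearest values, whereas Hcn2 to Hcn4 overlaps.

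Among the L-type channels, Cacna1d was higher in HG at a low level. It encodes Cav1.3, which opens at more negative voltages than Cav1.2 and takes part in pacemaking of the sinoatrial node. CON libraries 1 to 5 held 0.550, 0.557, 0.576, 0.423 and 0.609 FPKM, and HG libraries 1 to 5 held 0.725, 0.821, 0.580, 0.715 and 1.23 FPKM. HG replicate 3 lay within the CON range and the other 4 HG libraries above it, with HG replicate 5 far above the rest. The mean went from 0.543 ± 0.0709 to 0.814 ± 0.248 FPKM (SD, n = 5 each), or 0.48 on the log2 scale (standard error 0.175, limma adjusted p = 0.0460). This call was close to the threshold. It was lost in 14 of 21 alternatives, among them median-of-ratios factors (0.40, adjusted p = 0.0929) and 9 of the 10 fits that left out a library, with adjusted p up to 0.103 and a log2 fold change of 0.33 without HG replicate 5.

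Cacna1c, which encodes Cav1.2, the main L-type channel of heart muscle, fell in HG from 25.2 ± 2.93 to 21.0 ± 2.26 FPKM (SD, n = 5 each), a log2 difference of -0.27 (limma adjusted p = 0.0264). The ratio of Cacna1d to Cacna1c was 0.0240, 0.0238, 0.0250, 0.0146 and 0.0218 in CON libraries 1 to 5 and 0.0346, 0.0429, 0.0275, 0.0375 and 0.04997 in HG libraries 1 to 5. All HG libraries were above all CON libraries, and for this ratio too the share among gene pairs was not determined. The log2 ratio rose by 0.81, or 1.76-fold (two-sided exact permutation test, n = 5 each, p = 0.00794, adjusted p = 0.0159 over 4 ratios). With any library left out the groups necessarily stayed apart, and the rise of the log2 ratio was 0.68 to 0.93.

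Scn4b, the sodium channel β4 subunit, which modulates how the pore opens and closes, was at 0.585, 0.672, 0.918, 1.29 and 0.810 FPKM in CON libraries 1 to 5 and at 0.772, 0.859, 1.41, 1.06 and 1.21 FPKM in HG libraries 1 to 5. The groups overlapped widely, and CON replicate 4 was above 4 of 5 HG libraries. The log2 fold change was 0.30 (standard error 0.204, 95% confidence interval -0.14 to 0.74, adjusted p = 0.269 from limma), which spans 0.905-fold to 1.67-fold. Scn4b varied among replicates by 32.1% in CON and 24.5% in HG, as a coefficient of variation, where the counting of its reads alone gives 11.6% and 10.5%. Cacna1h, with the most reads, varied by 9.29% in CON and 3.45% in HG against 1.19% and 1.25% from counting. A difference of the size seen in Scn4b was not detectable at this spread.

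**Figure D3:**
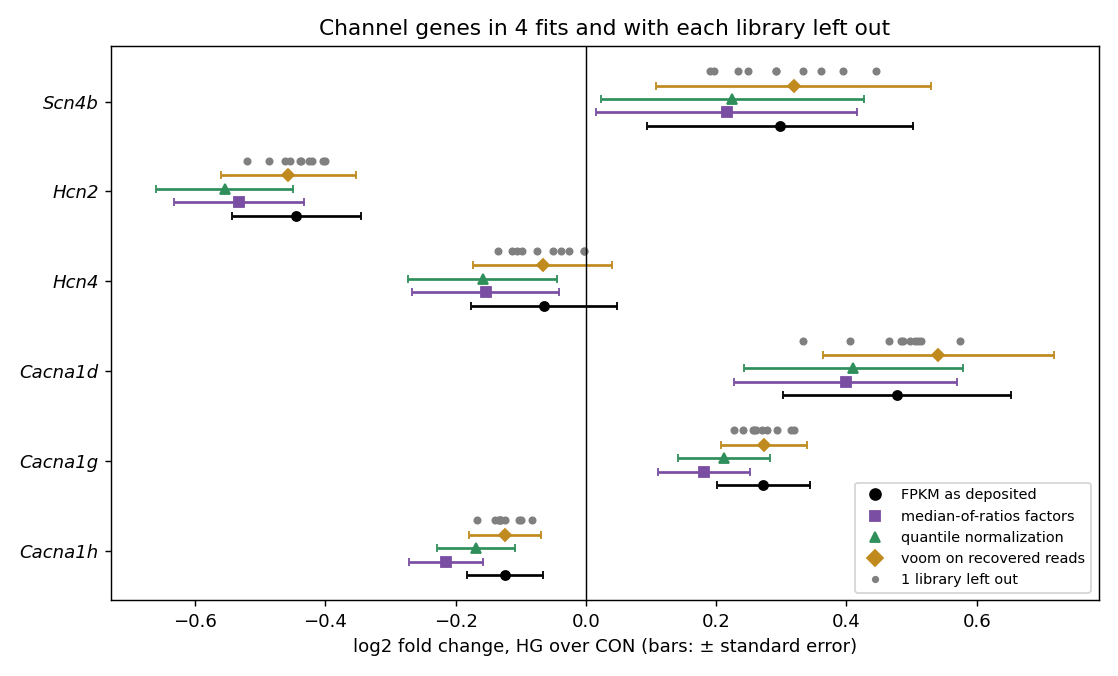
Log2 fold change of HG over CON (x axis) of the 6 channel genes, with bars of ± the standard error, in the fit on FPKM as deposited, with median-of-ratios factors, with quantile normalization and with voom on recovered reads, and as grey points with each of the 10 libraries left out. Each gene keeps its sign in every fit shown, with Hcn4 reaching -0.002 and Hcn2 between -0.55 and -0.40.

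The counts of called genes in the lists below are to be read against the 40.1% of all genes that were called, 28.4% higher and 11.8% lower. Among the sodium channel pores, Scn7a and Scn8a did not pass the test. Scn1a, known mainly from neurons, fell from 1.81 ± 0.232 to 0.863 ± 0.113 FPKM (SD, n = 5 each), a log2 difference of -0.99 (limma adjusted p = 7.88e-05), and Scn3a fell from 0.163 ± 0.0344 to 0.0840 ± 0.00937 FPKM, a call lost in 11 of 21 alternatives. Scn4a, the pore of skeletal muscle, rose from 0.335 ± 0.0315 to 0.492 ± 0.0458 FPKM, a log2 difference of 0.44 (limma adjusted p = 0.0173). Scn2a, Scn9a, Scn10a, Scn11a and the leak channel Nalcn lay below the filter. The sodium channel β subunits Scn2b and Scn3b, like Scn4b, did not pass, at 1.151 ± 0.198 and 2.12 ± 0.341 FPKM in CON and 1.08 ± 0.184 and 2.10 ± 0.339 FPKM in HG.

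Of 9 voltage-gated calcium channel pores listed, 7 were tested, and Cacna1g and Cacna1d rose, Cacna1c fell and 4 did not pass (median log2 fold change 0.17, against 0.09 over all genes tested), so that 3 of 7 were called, near the share of all genes. Under median-of-ratios factors none of them rose and 2 fell, Cacna1c and Cacna1h. The Cacna1c call was lost without CON replicate 4, CON replicate 5, HG replicate 2 or HG replicate 4, at an adjusted p of 0.0633 at most, and with any of these left out 1 pore gene of this family was called. The accessory subunits, which carry the pores to the membrane and tune them, had 10 of 14 listed genes tested, and 3 rose, none fell and 7 did not pass (median 0.30), against 1 higher under median-of-ratios factors. Cacnb3 rose from 3.26 ± 0.102 to 4.01 ± 0.203 FPKM, a log2 difference of 0.29 (limma adjusted p = 0.00267). Cacnb2, the main β subunit of the heart, rose from 6.48 ± 0.220 to 7.41 ± 0.204 FPKM, a log2 difference of 0.19 (limma adjusted p = 0.00685), but not with median-of-ratios factors (0.10, adjusted p = 0.119) or after quantile normalization. Cacng7, which had between 2 and 19 reads in any library, rose by 0.96 on the log2 scale, and its call was lost in 10 of 21 alternatives. With median-of-ratios factors Cacnb3 was the accessory subunit still called.

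**Figure D4:**
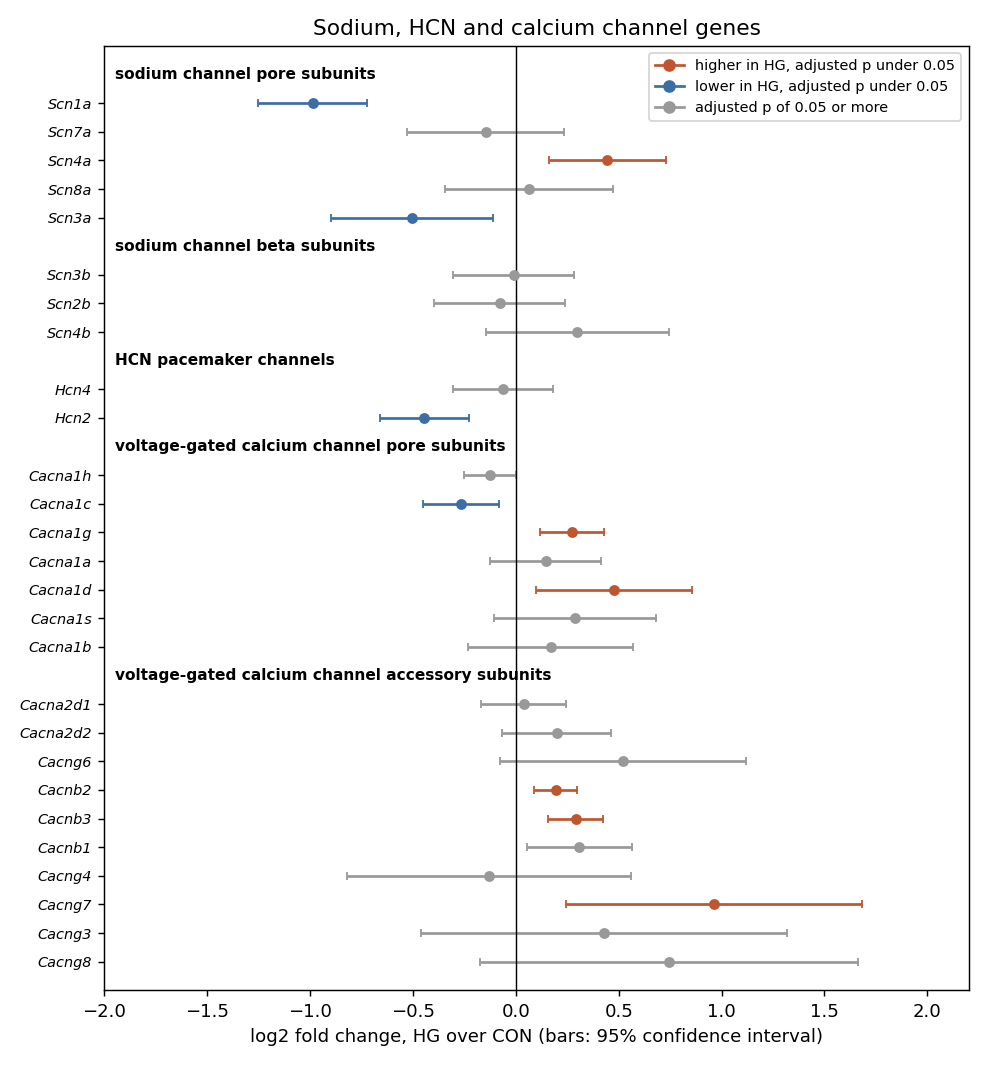
Log2 fold change of HG over CON with its 95% confidence interval (x axis) for sodium, HCN and calcium channel genes that were tested, ordered within each family by CON level, orange where higher and blue where lower at an adjusted p under 0.05. The blue genes include Scn1a (-0.99), Hcn2 (-0.44) and Cacna1c (-0.27), and the orange genes Cacna1g (0.27), Cacna1d (0.48) and Cacnb3 (0.29).

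Partners of the sodium channel had 12 of 13 genes tested, of which 2 rose, 4 fell and 6 did not pass (median -0.11). Median-of-ratios factors gave 1 higher and 7 lower. Cav3, the caveolin of muscle membranes, fell from 102.2 ± 7.96 to 70.3 ± 1.95 FPKM (SD, n = 5 each), a log2 difference of -0.54 (limma adjusted p = 1.15e-05). Gpd1l and Rangrf, whose proteins are known to act on sodium current, fell by 0.29 and 0.24 on the log2 scale (adjusted p = 0.00158 and 0.00402). Fgf11, of the intracellular growth factor homologues, rose from 0.189 ± 0.0528 to 0.376 ± 0.0658 FPKM.

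Partners and repressors of HCN and calcium channels had 15 of 16 listed genes tested, of which 5 rose, 1 fell and 9 did not pass (median 0.22), so that 6 of 15 were called, about the share of all genes (40.1%). Median-of-ratios factors gave 3 higher and 4 lower. Rest, which encodes a repressor of neuronal genes that also represses fetal ion channel genes in the ventricle, rose from 10.7 ± 0.499 to 13.8 ± 0.416 FPKM (SD, n = 5 each), a log2 difference of 0.37 (limma adjusted p = 7.42e-05). Rem2, an inhibitor of calcium channels, and Stac3, a calcium channel adaptor of skeletal muscle, rose by 1.02 and 0.81 on the log2 scale (adjusted p = 0.0298 and 0.0369), and Stac fell by 0.69 (adjusted p = 0.0273). Rem2 and Stac3 had 0 reads in the lowest library, and Rem2, Stac3 and Stac lost their calls in 5, 10 and 6 of 21 alternatives. The number of genes called in this list was 2 without CON replicate 3 and 3 without HG replicate 5.

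Transcription factors of the node and conduction system were all tested, and 6 of 15 rose, 1 fell and 8 did not pass (median 0.24), so that 7 of 15 were called, near the 40.1% of all genes. Median-of-ratios factors gave 4 higher and 2 lower. Hand1 rose from 6.71 ± 0.933 to 11.1 ± 0.980 FPKM, a log2 difference of 0.72 (limma adjusted p = 8.93e-05), and Irx5, Id2 and Tbx18 rose by 0.62, 0.57 and 0.52 on the log2 scale (adjusted p = 0.000153, 9.47e-05 and 0.00210). The factor that fell was Tbx2, from 5.68 ± 0.523 to 4.00 ± 0.337 FPKM, a log2 difference of -0.49 (limma adjusted p = 0.000405). Tbx3 and Shox2, which set the fate of node cells, were at 1.84 ± 0.183 and 0.298 ± 0.179 FPKM in CON and at 1.75 ± 0.256 and 0.317 ± 0.188 FPKM in HG (adjusted p = 0.627 and 0.946).

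Marker lists of the cell types that carry these channels were set beside the same 40.1% of all genes. Of 11 cardiomyocyte markers 10 fell and none rose (median -0.31), with a summed level of 21836 to 23026 FPKM in CON and 17699 to 20357 in HG. Of 12 markers of sinoatrial and conduction cells, 11 were tested and 1 rose, a share below that of all genes, namely Igfbp5 (log2 fold change 0.43, adjusted p = 0.000411), at a sum of 144.9 to 181.8 FPKM in CON and 172.9 to 211.1 in HG. The most abundant in this sum were Igfbp5, at 75.1 FPKM in CON and 101.5 in HG, and Gja5, at 52.9 and 58.4 FPKM. The node markers Tbx3, Shox2 and Isl1 did not pass. Without CON replicate 1, 3 markers of this list were called. Atrial markers had 3 higher and 1 lower of 9, at a sum of 2810 to 4131 FPKM in CON and 3790 to 5308 in HG. Nppa, the most abundant of them, rose from 1733 ± 262 to 2855 ± 509 FPKM, or 0.71 on the log2 scale. The next most abundant, Myl4 and Myl7, went from 833 to 873 and from 789 to 759 FPKM and did not pass (limma adjusted p = 0.582 and 0.801). Ventricular markers had 2 higher and 2 lower of 7, with Myl2 down by 0.41, at 10539 to 11516 FPKM in CON and 8260 to 9655 in HG. With median-of-ratios factors 1 ventricular marker was higher and 3 were lower. Smooth muscle and pericyte markers had 3 higher and 1 lower of 8, at 794.4 to 913.8 FPKM in CON and 1002 to 1266 in HG. No marker of any list was at 0 in all libraries. The part of these markers in the channel results was not tested.

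Neuron markers had 4 of 11 tested, 1 higher (Stmn2, log2 fold change 0.64) and 2 lower (Dbh, -0.55, and Prph, -0.43). Stmn2 was not called with median-of-ratios factors (adjusted p = 0.0737 from limma). The sum of the neuron markers was 4.65 to 5.54 FPKM in CON and 3.87 to 4.75 in HG, and their call count was 1 without CON replicate 1 or CON replicate 4. Glia markers had 2 of 6 tested and 0 called, at sums of 3.56 to 5.64 FPKM over both groups. Fibroblast markers had 2 higher and 3 lower of 7, and endothelial markers 2 higher and none lower of 7. With median-of-ratios factors the counts were 2 higher and 5 lower for fibroblasts, and 1 higher and 1 lower for endothelium. Red cell markers had 7 of 8 lower, at 10275 to 19459 FPKM in CON and 8005 to 11285 in HG. Skeletal muscle markers had 5 of 10 tested, 2 higher and 1 lower, the latter being Ckm, which heart muscle also expresses and which held nearly all of their sum of 961.1 to 1127 FPKM in CON and 483.4 to 583.7 in HG.

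The genes most alike in pattern to each channel gene were found by the mean absolute difference of log2(FPKM + 0.1), each gene centred on its own mean over the 10 libraries, among 11135 or 11136 other named genes that averaged 1 FPKM or more. For Hcn2 these were Rdh13 (0.0739) and Spata13 (0.0802), where Hcn2 itself lay on average 0.238 from its mean. For Hcn4 they were Kcnj5 (0.0893), which encodes the potassium channel GIRK4 of atria and node, and Atp7b (0.0898), against 0.164 for Hcn4 itself. Cacna1g was nearest to Prdm16 (0.0486) and Crocc (0.0509), and Cacna1h to Pitpnm2 (0.0337) and Adar (0.0402). Cacna1d was nearest to Cemip (0.0849) and Myrf (0.102). Scn4b had the least close neighbours, L3hypdh (0.145) and Mok (0.147), against 0.304 for Scn4b itself. Genes with the same difference between groups are near by this measure whatever their function.

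**Figure D5:**
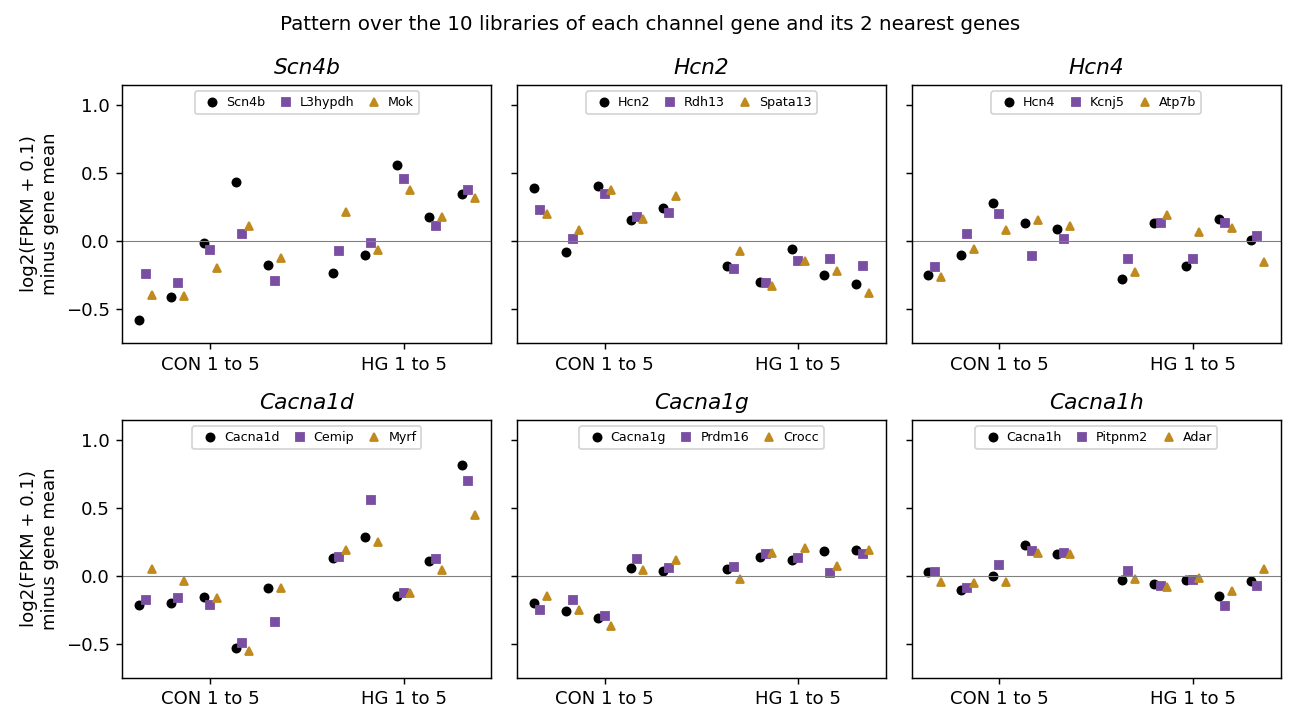
Pattern of each channel gene (black circles) and its 2 nearest genes (purple squares and gold triangles) as log2(FPKM + 0.1) minus the gene's own mean (y axis) over CON and HG libraries 1 to 5 (x axis), whose numbers carry no order. The pattern of Cacna1d shares the high value of HG replicate 5 and the low value of CON replicate 4 with Cemip and Myrf.

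The annotation deposited with the values attached the GO term regulation of heart rate by cardiac conduction to Scn4b, Hcn4, Cacna1d and Cacna1g. Of the 36 tested genes of this term, 7 rose and 8 fell (median log2 fold change 0.05). Both directions together are about the 40.1% of all genes that were called. By direction, 28.4% of all genes rose and 11.8% fell, so that fallen genes were more frequent in this term than over all genes. The counts of the other terms are to be read against the same shares. The term voltage-gated sodium channel activity was attached to 5 of the channel genes, all except Cacna1d, and had 2 higher and 5 lower of 16 tested genes (median -0.09). Sodium ion transmembrane transport was attached to the same 5, with 7 higher and 11 lower of 56. Regulation of ion transmembrane transport was attached to all except Scn4b, with 10 higher and 13 lower of 65. Regulation of membrane potential was attached to Hcn2, Hcn4, Cacna1g and Cacna1h, with 11 higher and 14 lower of 58. The KEGG pathway GnRH secretion was attached to Hcn2, Cacna1d, Cacna1g and Cacna1h, with 16 higher and 8 lower of 52 tested genes. The broad terms plasma membrane, cytoplasm and neuronal cell body were each attached to at least 4 of the 6 as well.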

How the data were processed

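Stranded mRNA libraries of whole fetal hearts (5 CON, 5 HG) were sequenced, and the authors deposited FPKM per gene, with GO and KEGG annotation. The submitters' processing notes name fastp, HISAT2, HTSeq and R 3.2.0 with the build mRatBN7.2. All per-sample columns were used.

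A gene was tested where it averaged 0.1 FPKM or more. Groups were compared on log2(FPKM + 0.1) by limma 3.58.1 in R 4.3.3 (linear model, trend, no covariate, Benjamini-Hochberg over 14542 genes). The added 0.1 makes the differences of low genes look smaller than they are. DESeq, named in the Methods, takes counts and was not used. For ratios of a gene pair, the test was a two-sided exact permutation over 252 divisions, adjusted over 4 ratios. Results of some genes, with 1 of these ratios, are not reported here. Reads were recovered from the steps between FPKM values, which gave whole numbers within 0.02 for 100% of values. The model was tested on simulated data.

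Alternatives changed the pseudocount (1 or 0.01), the filter (absent, or 1 FPKM), the scaling (median-of-ratios, quantile, or without hemoglobin genes) and the model (array weights, trend omitted, Y-linked covariate, replicate block), or used ratios of mean FPKM, voom on recovered reads, or all libraries but 1. The channel genes, 8 channel and regulator lists and 11 marker lists were chosen with earlier results of these data known. Genes were named by rule: the 6 channel genes, their ratio partners, up to 4 further called genes of the largest change per channel or regulator list, the most abundant markers, and the 2 nearest in pattern. Other markers and Tbx2 were named after their values were seen. Python 3.11.15 with numpy 2.4.6, pandas 2.3.3 and matplotlib 3.10.9 was used.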

Additional observations from a re-analysis of the deposited data

Results flagged for a closer look

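Among 56 groups of 5 libraries examined for a sample far from the others, 4 held one, where chance alone gives about 1 in 20. CON replicate 1 had a ratio of Hcn2 to Hcn4 of 0.761, above the 0.491 to 0.540 of the other CON libraries. HG replicate 4 had 41.5 FPKM of Cacna1h, below the 44.1 to 45.1 of the other HG libraries. CON replicate 2 had 1.403 FPKM of Scn1a, below the 1.85 to 1.96 of the other CON libraries. HG replicate 2 had 13.4 FPKM of Irx5, above the 10.2 to 11.1 of the other HG libraries.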

How the results depend on the processing

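Every fold change of the 6 channel genes kept its direction in every fit, and the number of genes called among them was 2 or 3 with any library left out. Cacna1d was not called without a filter (0.48, adjusted p = 0.0617), with median-of-ratios factors (0.40), after quantile normalization (0.41, adjusted p = 0.0796), with hemoglobin genes left out (0.47, adjusted p = 0.0524) and with array weights (0.41, adjusted p = 0.0672), and a filter at 1 FPKM left out Cacna1d and Scn4b. Cacna1g was not called with median-of-ratios factors (0.18), while Cacna1h was with these factors (-0.22) and after quantile normalization (-0.17). With a library left out, log2 fold changes ranged from 0.33 to 0.58 for Cacna1d, 0.23 to 0.32 for Cacna1g, -0.17 to -0.083 for Cacna1h, -0.52 to -0.40 for Hcn2, -0.13 to -0.002 for Hcn4 and 0.19 to 0.45 for Scn4b. The log2 ratio ranged from -0.48 to -0.28 for Hcn2 to Hcn4, 0.36 to 0.43 for Cacna1g to Cacna1h, and 0.68 to 0.93 for Cacna1d to Cacna1c.

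Replicate numbers did not pair the libraries: deviations of same-numbered libraries correlated between -0.13 and 0.11. With the replicate block the calls of the 6 channel genes were the same (Cacna1d, 0.48, adjusted p = 0.0489), and 5096 genes in all were called against 5836. In sign-flip tests of the ratios within the block, where 0.0625 is the smallest p of 5 pairs, Cacna1g to Cacna1h (0.40) and Cacna1d to Cacna1c (0.81) both gave 0.0625. Of 36 other named genes that were called, with Tbx2 and Stmn2 not counted, 21 stayed called in every alternative. Lists whose count of called genes moved by over 1.5 times included accessory calcium subunits (1 under either rescaling of libraries, against 3), HCN channels (2 without a filter, against 1, through Hcn3 at an adjusted p of 0.0314), red cell markers (3 with hemoglobin genes left out, against 7), ventricular markers (2 after quantile normalization, against 4) and glia markers (1 without a filter, against 0). Myl2 and Tnnt2 were not called after quantile normalization and were called in the other 21 alternatives. Quantile normalization gives a gene that holds the same rank in every library the same value in each. The most abundant genes, such as Myl2, thus have little or no room to differ. This setting therefore cannot decide on them or on the ventricular count. Genes past the 2-fold threshold numbered 64 with a pseudocount of 1 and 407 with 0.01, against 282. Few reads limit the precision for the genes below the filter and, in part, for Scn4b and Cacna1d, whose replicates varied by more than counting gives. Cacna1d varied by 13.1% in CON and 30.5% in HG, where counting alone gives 10.3% and 8.43%.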
